A study of Mus musculus with 6 samples.

Results

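Ribosome biogenesis and nucleolar genes encode the machinery that makes ribosomes: the factors that transcribe ribosomal RNA, the small nucleolar ribonucleoproteins (snoRNPs) that modify it, and the proteins that cleave it and assemble it into subunits. Here they are represented by 36 genes, a list of nucleolar, rRNA-processing and RNA polymerase I genes found by symbol in a table of 55471 genes. All 36 matched a single identifier, and all 36 were among the 13044 genes that passed the filter on low counts. They were measured by RNA sequencing in a mouse undifferentiated pleomorphic sarcoma line, a malignant soft-tissue tumour grown in culture and labelled as metastatic, in 3 libraries labelled Setd1a Knock Out and 3 labelled WT (called Setd1a KO and control here). Setd1a encodes a histone methyltransferase that acts at active promoters, and the comparison asked how its loss altered gene expression. The sample titles add a code to every Setd1a KO library and another, AAV2, to every control library. The labels give neither the meaning of these codes nor the way the knockout was made, and do not say whether it was 1 clone or a pool, so whatever the codes mark cannot be told apart from the knockout. All cells grew in the same serum-containing medium. Nothing says that the numbered replicates were separate cultures, so each p-value reflects spread among libraries that may be technical. In bulk RNA, fewer cells expressing a gene and less RNA per cell cannot be told apart.

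Making a ribosome starts in the nucleolus, where RNA polymerase I copies the ribosomal DNA into a long precursor. That precursor is modified at sites chosen by box C/D and box H/ACA snoRNPs, cut by the small-subunit processome and by large-subunit factors, and packed with ribosomal proteins. The demand for ribosomes rises with cell growth, and many of these genes are known targets of the transcription factor Myc, which binds the E-box CACGTG.

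Depth was even, at 17749533 to 18272622 counts per library. Setd1a itself (chromosome 7, 127776670 to 127800122, GRCm38) had 53.2, 68.7 and 56.3 CPM (counts scaled to library size, as a rate per 1e+06 counts) in Setd1a KO replicates 1, 2 and 3, against 71.0, 75.3 and 73.5 CPM in the controls. The groups did not overlap (exact two-sided permutation p = 0.1, the smallest that 3 against 3 allows). The log2 change was -0.30 ± 0.12 (SE, edgeR adjusted p = 0.426). Of its exonic bases 52.3% are shared with other annotated genes, and counts per gene do not show whether a transcript is disrupted. Of the mesenchymal markers 14 of 14 had enough counts to be tested, whereas 3 of 14 macrophage, 2 of 10 endothelial, 0 of 10 lymphocyte and 4 of 11 epithelial markers did. Lymphocyte markers summed to 0.28 to 0.56 CPM in the Setd1a KO libraries and to 0.055 to 0.22 CPM in the controls, with 8 of 10 at 0 in every library. Macrophage markers summed to 21.3 to 29.0 CPM in Setd1a KO and 21.7 to 23.9 CPM in control libraries, and endothelial markers to 7.72 to 7.98 CPM in Setd1a KO and 7.36 to 8.54 CPM in control libraries. Epithelial markers reached at most 95.9 CPM in Setd1a KO and 91.5 CPM in control libraries. Of the 4 tested, 1 rose with pairing, where 1.43% of all genes tested were called higher. Mesenchymal markers summed to 11366 to 12623 CPM in Setd1a KO and 13012 to 14001 CPM in control libraries (12 of 14 below 0, median log2 change -0.18, 0 called with or without pairing or by DESeq2). At an unadjusted p under 0.05 in edgeR without pairing 1 of the 14 was lower, where 10.0% of all genes tested passed in either direction. With pairing 6 of the 14 passed, where 19.6% of all genes tested did. The part of these markers in the results below was not tested.

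The promoter window of 31 of the 36 genes could be read. RefSeq promoter windows (GRCm38.p6, 250 bases before to 50 after each annotated start) held CACGTG in 8 of the 31 genes, or 25.8%, against 8.09% of the 27025 genes with a window. The motif reads the same on both strands, and 7 of the 8 sites lay downstream of the annotated start. The 8 sites are shown because CACGTG is the E-box that Myc binds, though binding at these genes was not measured. Each is given with up to 12 bases on either side and the E-box in capitals, read 5′ to 3′ on the strand of the gene. The stretches of Mybbp1a and Utp20 stop at the end of the window.
Nop2: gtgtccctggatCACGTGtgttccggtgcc
Utp4: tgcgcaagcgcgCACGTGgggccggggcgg
Wdr43: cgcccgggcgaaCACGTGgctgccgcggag
Pes1: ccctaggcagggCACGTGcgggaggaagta
Ltv1: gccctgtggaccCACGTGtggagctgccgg
Tsr1: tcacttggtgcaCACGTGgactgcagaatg
Utp20: cggcactaactaCACGTGaggaaaa
Mybbp1a: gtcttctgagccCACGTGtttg
These stretches lie at chr6:125131811-125131840 (plus strand) for Nop2, chr8:106893643-106893672 (plus) for Utp4, chr17:71616220-71616249 (plus) for Wdr43, chr11:3963965-3963994 (plus) for Pes1, chr10:13193092-13193121 (minus) for Ltv1, chr11:74898092-74898121 (plus) for Tsr1, chr10:88826765-88826789 (minus) for Utp20 and chr11:72441355-72441376 (plus) for Mybbp1a. The ETS-type motif CCGGAAG, searched on both strands, was also in 8 of the 31 genes (25.8%, against 9.93% of all), and Nop2, Utp4, Ltv1 and Tsr1 held both motifs. GCATGCG, the core of the NRF1 motif, which partly overlaps its own reverse complement, was in 3 of the 31 (9.68%, against 4.01% of all), namely Nob1, Ubtf and Utp20. A match describes these letters and does not show that a factor binds there.

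No ribosome biogenesis gene passed the test between Setd1a KO and control cells. In the quasi-likelihood test of edgeR without pairing, 0 of the 36 were higher and 0 lower at an adjusted p under 0.05, where 0.0% of all genes tested were called, and the smallest adjusted p among the 36 was 0.770, for Ebna1bp2. At an unadjusted p under 0.05 the count was also 0 of 36, where 10.0% of all genes tested passed. With libraries of the same replicate number treated as pairs, 2.28% of all genes tested were called (1.43% higher and 0.851% lower), and again 0 of the 36, with a smallest adjusted p of 0.309 for Nhp2. That paired test left 0 of the 36 at an unadjusted p under 0.05, where 19.6% of all genes tested passed. DESeq2 without pairing called 1.11% of the genes it gave an adjusted p, and 0 of the 36.

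The log2 changes ran between -0.16 and 0.088, with standard errors of 0.099 to 0.25. The 95% intervals of all 36 lay within a 2-fold change in either direction, and those of 35 lay within 1.5-fold, the exception being Rrp12 with -0.54 to 0.59. In the paired test the intervals of all 36 lay within 1.5-fold, the outermost bounds being -0.36 and 0.27. Smaller changes in either direction lie inside these intervals. For 0 of the 36 genes did the 3 Setd1a KO values all lie on one side of the 3 control values, which was the case for 15.3% of all genes tested.

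**Figure D1:**
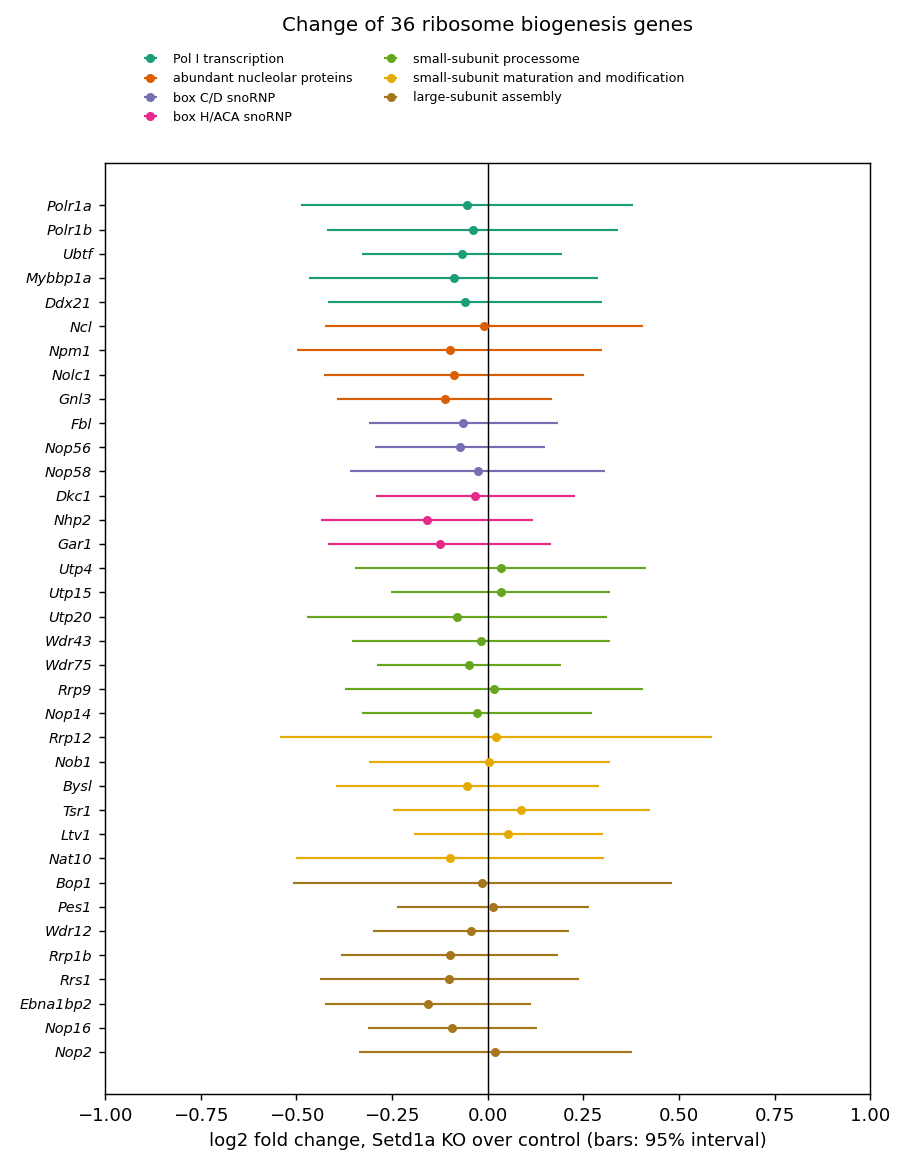
Log2 fold change of Setd1a KO over control for each of the 36 genes (points, edgeR without pairing) with its 95% interval (bars), coloured by role. Every interval crosses 0, and the widest is that of Rrp12, from -0.54 to 0.59.

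As a set, 27 of the 36 had a log2 change below 0 and 9 above, with a median of -0.051, a fold of 0.965. Of all genes tested 49.8% lay below 0 and the median was 0.00066. This lean depended on single libraries. Without Setd1a KO replicate 3 only 10 of the 36 lay below 0 (median 0.068), and without control replicate 2 only 16 did (median 0.021), while without control replicate 3 the count was 34 (median -0.12). Within pairs, 9 of 36 lay below 0 in pair 1, 25 in pair 2 and 29 in pair 3, with median log2 ratios of 0.080, -0.044 and -0.18. Only 3 genes were below 0 in all 3 pairs (8.33%, against 21.6% of all genes tested), and 1 was above 0 in all 3 (2.78%, against 19.9%). The 3 were Nop56, Dkc1 and Gnl3, and the 1 was Ltv1, all named after their values were seen. Nop56 had pair ratios of -0.046, -0.072 and -0.10 (log2).

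The levels of these genes varied more with replicate number than with genotype. The difference between Setd1a KO and control took a median of 3.98% of a gene's variance over the 6 libraries, against 14.9% over all genes tested. Replicate number took a median of 82.3%, against 53.7% over all genes tested; of the 5 degrees of freedom, genotype uses 1 and replicate number 2. For 34 of the 36 genes (94.4%, against 72.5% of all genes tested) the number took the larger part, and the exceptions were Nop56 and Nop16. The spread within a group was also wider, with a median SD of 0.23 on the log2 scale against 0.19 over all genes tested. These shares are descriptions of 6 libraries and were not tested.

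**Figure D2:**
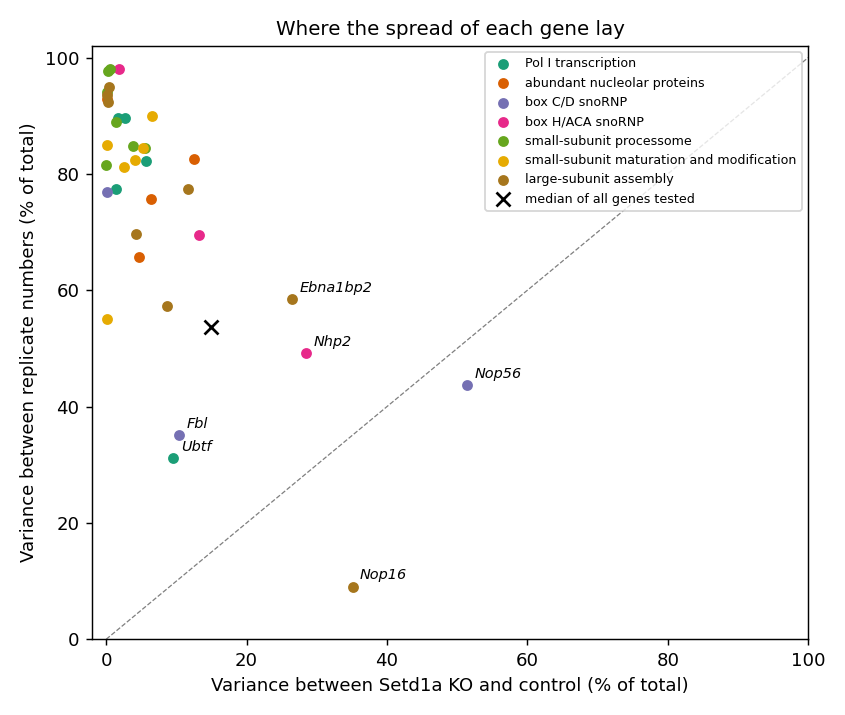
Share of each gene's variance over 6 libraries that lay between Setd1a KO and control (horizontal axis, %) and between replicate numbers (vertical axis, %), 1 point per gene coloured by role, with the median of all genes tested as a cross. Of the 36 genes 34 sit above the dashed line of equal shares, and Nop56 and Nop16 sit below it.

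Setd1a KO replicate 3 was the low library. It held the lowest of the 6 values for 26 of the 36 genes (72.2%, against 21.1% of all genes tested), and no gene of the 36 was highest in it. The median gene lay 0.27 below its own mean over the 6 libraries there (log2 scale), and 0.14 below it in control replicate 3. In the other libraries the median gene lay above its mean, by 0.11 and 0.046 in Setd1a KO replicates 1 and 2 and by 0.040 and 0.14 in control replicates 1 and 2. Over all genes tested the same medians lay between 0.00074 and 0.014. That library also had the highest share of counts from the mitochondrial genome, 3.91% against 3.74% and 3.48% in Setd1a KO replicates 1 and 2 and at most 3.03% in the controls; the part of this share in the low values was not tested. The median interferon-induced gene, of 24 listed, lay at -0.79 from its own mean in Setd1a KO replicate 1, 1.24 above it in replicate 2 and 1.18 above it in replicate 3, and its part in the low values was not tested. These 24 genes summed to 353.5, 1213 and 1123 CPM in Setd1a KO, against 502.2, 383.6 and 238.4 CPM in controls, so Setd1a KO replicate 1 lay below control replicates 1 and 2. Without pairing 0 of the 24 had a log2 change below 0, with a median of 1.42. Of the 24, 3 rose with pairing, where 1.43% of all genes tested were called higher. DESeq2 called 2 of them higher, and over all genes it made 133 calls (1.11%), 93 of them higher. In edgeR without pairing 0 were called (0.0% of all genes tested), and 19 were higher at an unadjusted p under 0.05 (10.0% in either direction). With pairing 16 passed that unadjusted threshold, where 19.6% of all genes tested did.

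**Figure D3:**
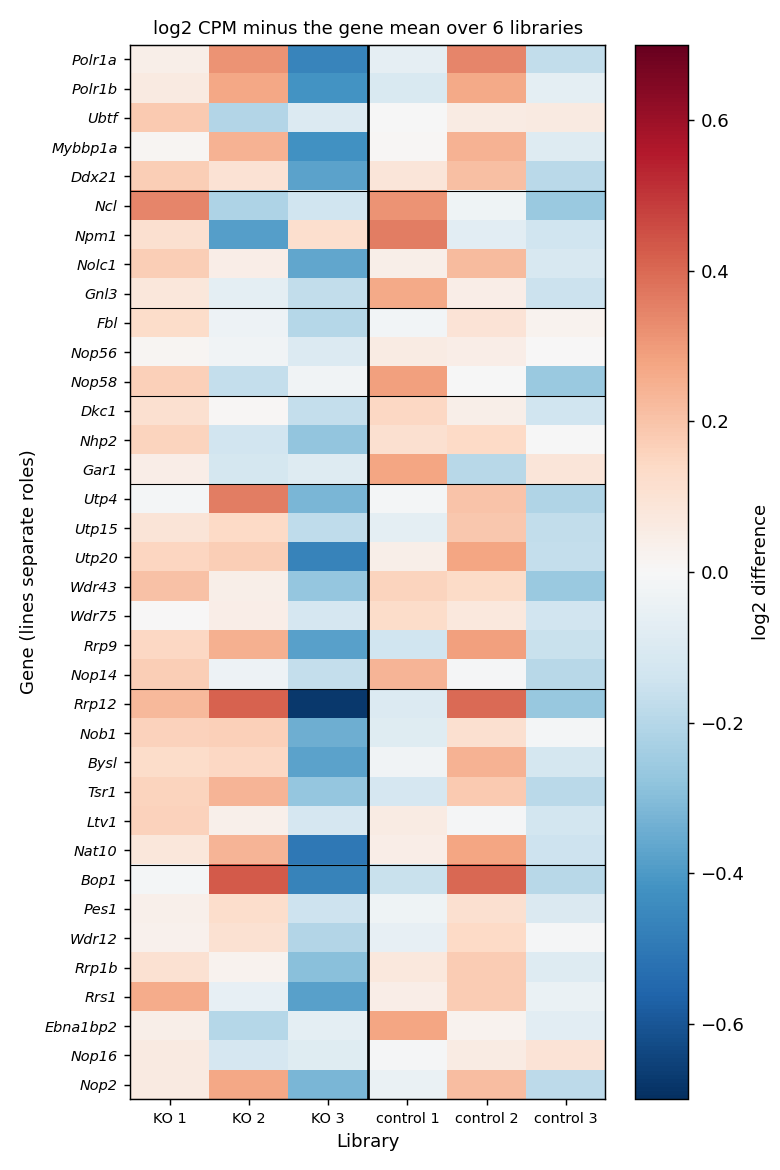
Log2 CPM of each gene minus its mean over the 6 libraries (colour; red above, blue below), with Setd1a KO replicates left of the control replicates and lines between roles. Setd1a KO replicate 3 is lowest for 26 of the 36 genes, while Ncl, Npm1 and Nop58 follow another pattern.

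RNA polymerase I transcription was represented by 5 genes, all with log2 changes below 0 (median -0.059). Polr1a encodes the largest subunit of the polymerase. It had 315.5, 381.6 and 222.9 CPM in Setd1a KO replicates 1, 2 and 3, against 294.0, 388.8 and 272.6 CPM in the controls. Replicate 2 was high in both groups and replicate 3 low in both, so the groups overlapped throughout (log2 change -0.054 ± 0.20 SE). Polr1b, the second-largest subunit, followed the same order of replicates in the knockout, with 117.2, 135.2 and 84.0 CPM, and was highest in replicate 2 of the controls, with 104.1, 134.6 and 107.0 CPM. Ubtf encodes the factor that opens ribosomal DNA for the polymerase, and it was the member of this role with the tightest controls: 253.5, 193.8 and 208.8 CPM in Setd1a KO, against 222.9, 231.8 and 232.6 CPM. Its log2 change was -0.067 ± 0.12 (SE, adjusted p = 0.938).

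Mybbp1a, a Myb-binding nucleolar protein that represses ribosomal RNA synthesis, was the most abundant of these genes per length, at 184.7 ± 41.7 CPM per kb of exon in Setd1a KO and 196.5 ± 24.1 in controls (SD, n = 3 each). Its libraries held 1105, 1295 and 814.8 CPM in Setd1a KO, against 1100, 1295 and 1025 CPM in controls, so replicates 1 and 2 were nearly the same in both groups and replicate 3 differed (log2 change -0.089 ± 0.17 SE, adjusted p = 0.947). Ddx21 encodes an RNA helicase of the nucleolus and had 658.5, 625.5 and 449.5 CPM in Setd1a KO, against 618.8, 674.5 and 512.5 CPM in controls, again lowest in replicate 3 of each group.

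The abundant nucleolar proteins Ncl and Npm1 had the highest levels per length of all 36 genes. Npm1, a histone chaperone that also moves ribosomal subunits, had 1109 ± 207.6 CPM per kb in Setd1a KO and 1188 ± 232.1 in controls, and Ncl, an RNA-binding protein of the nucleolus, had 268.2 ± 58.8 and 270.1 ± 54.9 CPM per kb (SD, n = 3 each). The levels of Mybbp1a, Nhp2, Nolc1 and Nop2 came next in order, between 156.2 and 190.6 CPM per kb over all libraries, and neighbours in this order differed by less than their spread. At the low end Wdr12 had 7.20 ± 0.79 CPM per kb in Setd1a KO and 7.42 ± 0.54 in controls, over a long annotated exon length of 11955 bases. Transcripts of 6 other annotated genes share stretches of at least 200 bases with Wdr12 at 95% identity or more. Some of its reads may therefore have been split or left out.

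Ncl had 3421, 2325 and 2453 CPM in Setd1a KO replicates 1, 2 and 3, against 3357, 2645 and 2254 CPM in the controls. Replicate 1 was high in both groups and the group means were 2733 ± 599.0 CPM in Setd1a KO and 2752 ± 559.2 CPM in controls (SD, n = 3 each). Its log2 change was -0.010 ± 0.19 (SE), with an edgeR adjusted p of 0.996. Npm1 had 3266, 2316 and 3281 CPM in Setd1a KO, against 3875, 2874 and 2745 CPM in controls. Here Setd1a KO replicate 3 was high and not low, and the log2 change was -0.099 ± 0.18 (SE, adjusted p = 0.941). Transcripts of 4 other annotated genes share stretches of at least 200 bases with Npm1 at 95% identity or more, so its reads may have been split or left out. Nolc1, a snoRNP chaperone, had 724.6, 663.3 and 498.8 CPM in Setd1a KO, against 661.4, 749.5 and 593.8 CPM in controls (log2 change -0.088 ± 0.15 SE). Gnl3, which encodes the GTPase nucleostemin, had 195.3, 176.0 and 163.9 CPM in Setd1a KO, against 221.8, 190.4 and 166.4 CPM in controls; each Setd1a KO library lay below the control of the same number, but the groups overlapped (log2 change -0.11 ± 0.13 SE, adjusted p = 0.880).

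**Figure D4:**
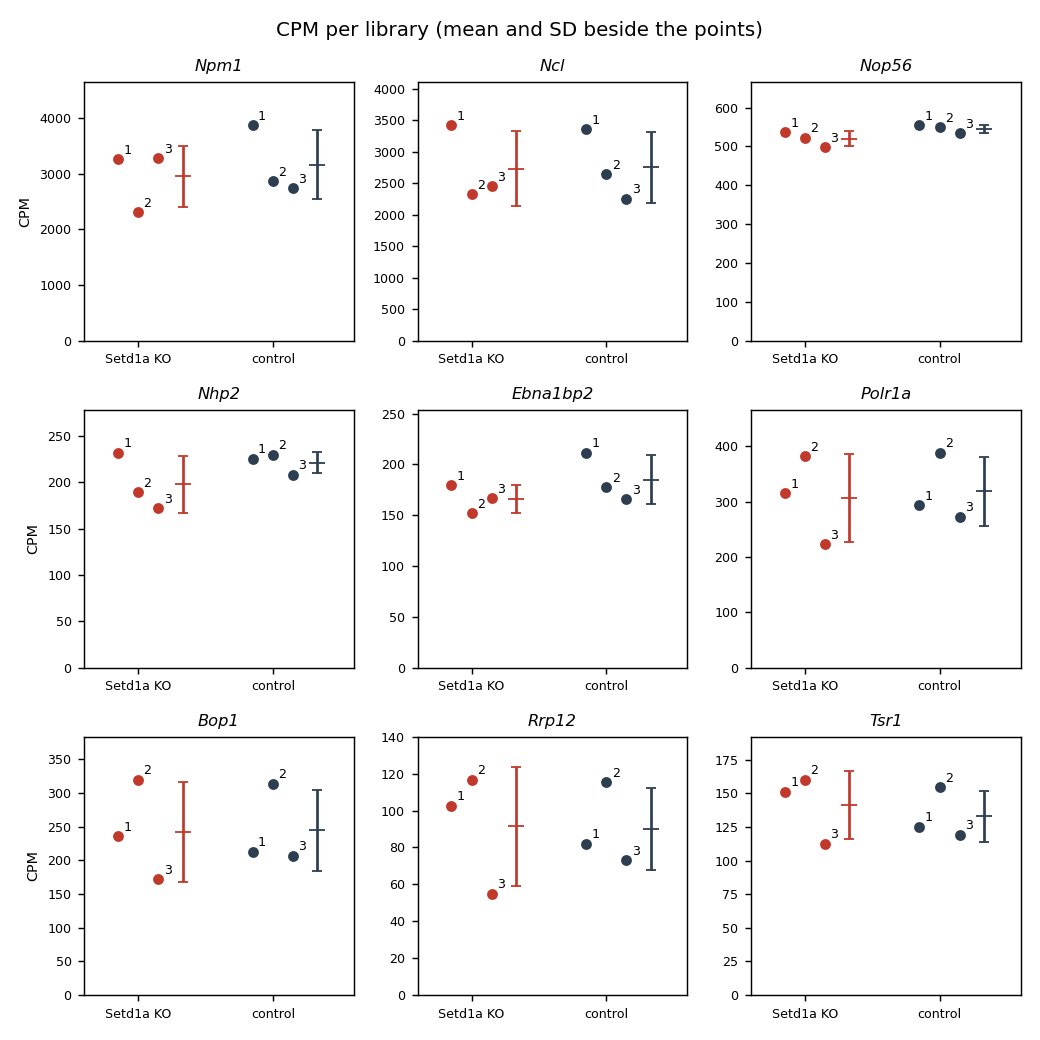
CPM of 9 genes in each library (points, numbered by replicate) with the mean and SD of each group beside them, Setd1a KO on the left of each panel and control on the right, on axes that start at 0. The points of both groups overlap in every panel, and same-numbered points of Polr1a, Bop1 and Rrp12 keep the order 2, 1, 3.

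The box C/D snoRNP proteins, which carry out methylation of ribosomal RNA, included the steadiest gene of the 36. Nop56, a core scaffold protein, had 536.8, 522.9 and 498.3 CPM in Setd1a KO, against 554.2, 549.5 and 534.2 CPM in controls. The highest library exceeded the lowest by only 1.11-fold, and 51.5% of the variance lay between the groups, the largest such share of the 36, yet the ranges still touched, since Setd1a KO replicate 1 lay above control replicate 3. The log2 change was -0.072 ± 0.10 (SE, adjusted p = 0.920). Transcripts of 3 other annotated genes share stretches of at least 200 bases with Nop56 at 95% identity or more. Of its exonic bases 8.12% are shared with other annotated genes, so some reads of Nop56 may have been split or left out. Its paralog Nop58 was far less steady, with 397.7, 315.4 and 347.3 CPM in Setd1a KO, against 431.5, 353.1 and 295.1 CPM in controls, a 1.46-fold span. Fbl encodes fibrillarin, the methyltransferase itself, and had 174.6, 155.8 and 138.7 CPM in Setd1a KO, against 157.6, 170.6 and 162.1 CPM in controls (log2 change -0.064 ± 0.11 SE, adjusted p = 0.938).

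The box H/ACA snoRNP proteins, which convert uridine to pseudouridine, held the most negative estimate. Nhp2, an RNA-binding core protein, had 232.3, 189.5 and 172.3 CPM in Setd1a KO, against 225.5, 229.7 and 208.3 CPM in controls. Setd1a KO replicates 2 and 3 lay below all controls and Setd1a KO replicate 1 above all of them, so the log2 change of -0.16 ± 0.12 (SE, 95% interval -0.44 to 0.12) had an adjusted p of 0.775. Gar1, another core protein, had 64.9, 57.7 and 59.1 CPM in Setd1a KO, against 76.2, 55.1 and 66.7 CPM in controls, with the lowest and the highest value both among the controls (log2 change -0.12 ± 0.13 SE). Dkc1 encodes the pseudouridine synthase dyskerin and showed how closely replicate numbers could align: it had 223.0, 207.1 and 183.9 CPM in Setd1a KO, against 228.4, 212.1 and 187.4 CPM in controls. Replicate number took 98.1% of its variance, and genotype 1.87%.

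The small-subunit processome, which makes the first cuts in the precursor, was represented by 7 genes, 4 with log2 changes below 0 and 3 above (median -0.018). Utp4 had the highest level per length among them, 87.8 ± 20.7 CPM per kb in Setd1a KO and 85.7 ± 12.2 in controls (SD, n = 3 each). Its libraries held 293.1, 378.8 and 236.7 CPM in Setd1a KO, against 292.5, 339.3 and 255.1 CPM in controls, with replicate 2 high in both groups. Utp20, a large scaffold protein, had 220.4, 223.6 and 143.3 CPM in Setd1a KO, against 204.1, 240.1 and 176.9 CPM in controls (log2 change -0.080 ± 0.18 SE), and Wdr75, a WD-repeat subunit, had 166.9, 172.5 and 154.0 CPM, against 182.4, 175.9 and 151.9 CPM (-0.048 ± 0.11 SE). Both were lowest in a library of replicate 3. Nop14, another assembly factor, stood with Dkc1 in the closeness of same-numbered libraries: it had 217.1, 187.9 and 171.6 CPM in Setd1a KO, against 227.5, 191.8 and 168.5 CPM in controls, and replicate number took 98.0% of its variance. The remaining members Utp15, Wdr43 and Rrp9 had log2 changes between -0.018 and 0.034.

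Later maturation and modification of the small subunit was represented by 6 genes, with a median log2 change of 0.013 and 2 of 6 below 0 without pairing, and of -0.014 with 4 of 6 below 0 with pairing. Tsr1, a GTPase-like factor of late small-subunit precursors, had the largest positive estimate of the 36. It had 151.3, 160.2 and 112.6 CPM in Setd1a KO, against 125.2, 154.5 and 119.1 CPM in controls (log2 change 0.088 ± 0.15 SE, adjusted p = 0.936). The groups overlapped, and 32.3% of its exonic bases are shared with Srr on the other strand, so without a known strand setting its reads are uncertain; Srr itself had 8.83 to 12.4 CPM in Setd1a KO and 10.7 to 13.2 CPM in controls. Nat10, which acetylates ribosomal RNA, had 118.2, 131.9 and 79.0 CPM in Setd1a KO, against 115.5, 135.6 and 101.0 CPM in controls (-0.098 ± 0.18 SE).

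Rrp12, a factor in the maturation and export of both subunits, varied most. It had 102.6, 116.7 and 54.9 CPM in Setd1a KO, against 81.9, 115.3 and 72.9 CPM in controls, so the highest library exceeded the lowest 2.13-fold while the group means, 91.4 ± 32.4 and 90.1 ± 22.4 CPM (SD, n = 3 each), were close. Its log2 change was 0.021 ± 0.25 without pairing and -0.017 ± 0.12 with pairing (SE). Ltv1, an export factor, went the steadier way, with 80.2, 73.5 and 66.1 CPM in Setd1a KO, against 74.8, 71.4 and 65.6 CPM in controls (0.054 ± 0.11 SE). Nob1, the nuclease that makes the final cut, and Bysl had log2 changes of 0.0045 and -0.054.

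Large-subunit assembly was represented by 8 genes, 6 with log2 changes below 0 (median -0.068). Ebna1bp2 had the smallest raw p of the 36, 0.225. This nucleolar assembly factor had 179.7, 151.8 and 166.8 CPM in Setd1a KO, against 211.7, 177.9 and 165.7 CPM in controls (log2 change -0.16 ± 0.12 SE, 95% interval -0.43 to 0.11). The Setd1a KO libraries of replicates 1 and 2 lay below the controls of the same number, and that of replicate 3 did not. Nop16 had 113.8, 100.2 and 102.8 CPM in Setd1a KO, against 108.1, 113.3 and 116.2 CPM in controls, and replicate number took only 9.04% of its variance (log2 change -0.092 ± 0.099 SE, adjusted p = 0.867). Nop2, a methyltransferase of ribosomal RNA, had the highest level per length in this role, with 447.3, 516.5 and 343.9 CPM in Setd1a KO, against 414.8, 496.9 and 377.8 CPM in controls (0.020 ± 0.16 SE).

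The PeBoW complex of Pes1, Bop1 and Wdr12, which processes the large-subunit precursor, showed unequal spread among its partners. Bop1 had 235.5, 319.8 and 171.6 CPM in Setd1a KO, against 213.0, 313.8 and 207.1 CPM in controls, a 1.86-fold span over the 6 libraries. Pes1 had 301.4, 320.8 and 266.4 CPM in Setd1a KO, against 288.3, 317.3 and 274.3 CPM in controls, a narrower span. Transcripts of 2 other annotated genes share stretches of at least 200 bases with Pes1 at 95% identity or more, so some of its reads may be missing. Wdr12 had 88.8, 93.8 and 75.6 CPM in Setd1a KO, against 83.6, 95.9 and 86.5 CPM in controls, a 1.27-fold span. In all 3 genes replicate 2 was the highest library of its group, and the log2 changes between Setd1a KO and control were -0.014, 0.014 and -0.043. Rrs1 and Rrp1b, also assembly factors, had log2 changes of -0.10 and -0.099 with Setd1a KO replicate 3 lowest.

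Between replicates 1 and 2 the genes moved in both directions. Replicate 2 exceeded replicate 1 in both groups for 16 of the 36 genes (44.4%, against 34.4% of all genes tested), lay below it in both for 11 (30.6%, against 32.4%) and differed in sign between the groups for the other 9. Bop1 was higher in replicate 2 by 0.44 (log2) in Setd1a KO and by 0.56 in controls, Polr1a by 0.27 and 0.40, and Rrp12 by 0.19 and 0.49, each in Setd1a KO and then in controls. Ncl, by contrast, was lower by 0.56 and 0.34, and Npm1 by 0.50 and 0.43, in Setd1a KO and control. Across the 36 genes the replicate 2 minus replicate 1 difference in Setd1a KO had a correlation of r = 0.78 with that in controls, where all genes tested gave r = 0.26. These values share no library, but the genes are not independent, and the correlation describes 4 libraries. Replicate 3 lay below replicate 2 in both groups for 29 genes (80.6%, against 34.7% of all genes tested) and above it in both for 3 (r = 0.81, against 0.51 over all genes tested). Replicate 3 also lay below replicate 1 in both groups for 29 genes (80.6%, against 28.4%), but there the sizes of the differences in Setd1a KO did not follow those in controls (r = -0.16, against 0.22 over all genes tested).

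**Figure D5:**
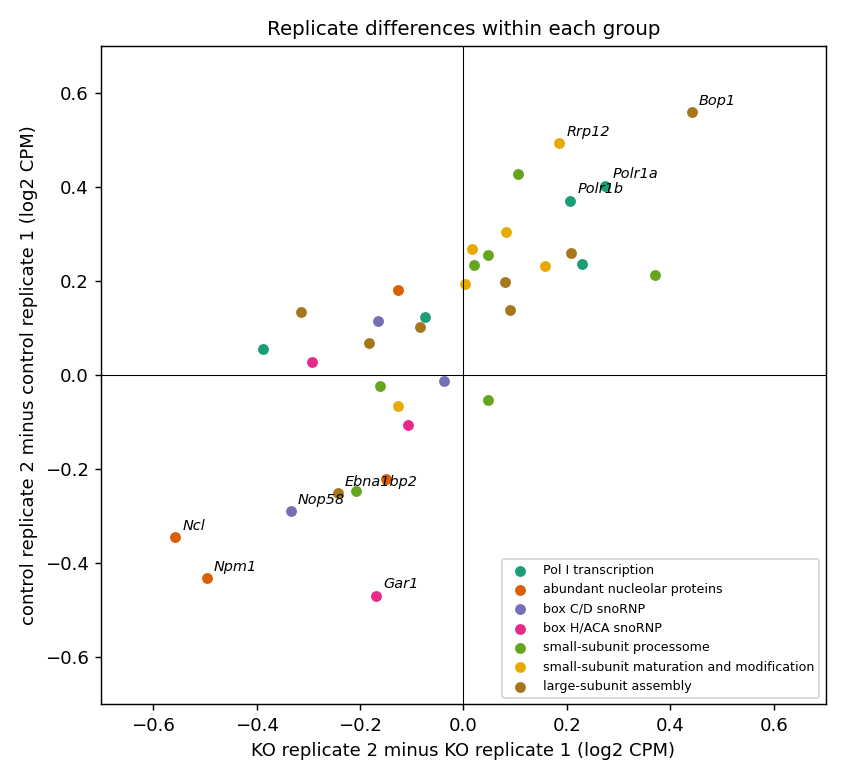
Replicate 2 minus replicate 1 in log2 CPM for each gene, in Setd1a KO (horizontal axis) and in control (vertical axis), coloured by role. Points at upper right (16 genes, among them Bop1, Rrp12 and Polr1a) were higher in replicate 2 of both groups, and points at lower left (11 genes, among them Ncl and Npm1) were lower in both.

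None of the 8 genes with the E-box in the promoter window passed the test (edgeR, with or without pairing, and DESeq2, and 0 of 8 at an unadjusted p under 0.05). They had log2 changes between -0.089 (Mybbp1a) and 0.088 (Tsr1), with a median of 0.017 and 3 of 8 below 0. The 23 genes with a window and no CACGTG had a median of -0.054 and 20 of 23 below 0. Each of the 8 took both signs when 1 library or pair was left out in turn, and the difference between these sets was not tested. Setd1a KO replicate 3 was the lowest library for 7 of the 8 and for 15 of the 23. Myc itself (chromosome 15) had 936.8, 982.4 and 802.0 CPM in Setd1a KO, against 1020, 887.2 and 922.6 CPM in controls. Its groups overlapped and its log2 change was -0.056 ± 0.12 (SE, adjusted p = 0.954). Among 12 tested genes of the Myc network 0 were called in edgeR with or without pairing (5 below 0, median 0.069) and 0 by DESeq2. At an unadjusted p under 0.05 in edgeR without pairing 1 passed, Mxd1, where 10.0% of all genes tested did. The Myc antagonist Mxd1 had 6.77, 6.99 and 5.99 CPM in Setd1a KO, against 4.09, 4.13 and 4.54 CPM in controls. Its groups did not overlap, as was the case for 15.3% of all genes tested (log2 change 0.63 ± 0.18 SE, adjusted p = 0.293). Mnt, another Max partner, had a log2 change of -0.21 ± 0.13 (SE, adjusted p = 0.689).

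Of 123 tested genes in 4 lists, 0 were called in either direction by edgeR with or without pairing or by DESeq2. At an unadjusted p under 0.05 without pairing 0 were higher and 1 lower, where 10.0% of all genes tested passed in either direction. Their median log2 change was 0.013, with 52 of 123 (42.3%) below 0. Shq1, an H/ACA assembly chaperone, was that 1 gene, with 14.6, 16.7 and 13.5 CPM in Setd1a KO, against 17.7, 19.5 and 19.2 CPM in controls. Its groups did not overlap, as was the case for 15.3% of all genes tested (log2 change -0.33 ± 0.13 SE, adjusted p = 0.450). Pih1d1, of the same list, had a log2 change of -0.31 ± 0.15 (adjusted p = 0.519), and 8 of its 12 genes lay below 0 (median -0.053). Among 18 other polymerase I factors 8 lay below 0 (median 0.0082), with Ttf1, which terminates the transcript, at -0.25 ± 0.14 and Taf1a, of the promoter selectivity factor, at 0.21 ± 0.14 (adjusted p = 0.601 and 0.710). Among 44 other small-subunit factors 17 lay below 0 (median 0.030), with Utp3 at -0.23 ± 0.14 and Pno1 at 0.15 ± 0.11 (adjusted p = 0.683 and 0.747). Among 49 other large-subunit factors 19 lay below 0 (median 0.019), with Pelp1 at -0.16 ± 0.12 and Rsl24d1 at 0.17 ± 0.15 (adjusted p = 0.731 and 0.818). Setd1a KO replicate 3 was the lowest library for 63 of the 123, or 51.2%.

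Of 14 tested genes of the RNA exosome and its cofactors, which trim precursors, 10 lay below 0 (median -0.038) and 0 were called with or without pairing or by DESeq2. At an unadjusted p under 0.05 in edgeR without pairing 1 was lower, Exosc1, where 10.0% of all genes tested passed in either direction. Exosc1 had 64.0, 74.1 and 60.7 CPM in Setd1a KO, against 93.3, 80.9 and 71.6 CPM in controls, with overlap between the groups (log2 change -0.31 ± 0.13 SE, adjusted p = 0.459). Exosc4 had a log2 change of -0.25 ± 0.11 (adjusted p = 0.505). Of 22 proliferation genes 19 lay below 0, with a median of -0.053 and 0 called with or without pairing or by DESeq2. Here too 1 gene, Ccnb2, was lower at an unadjusted p under 0.05 without pairing, against the same 10.0% of all genes tested. Ccnb2 and Ccna2, mitotic cyclins, had log2 changes of -0.31 ± 0.14 and -0.19 ± 0.11 (adjusted p = 0.498 and 0.631).

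In the list of nucleolar stress and p53 target genes, of 14 tested genes 0 were called without pairing or by DESeq2. At an unadjusted p under 0.05 in edgeR without pairing 2 were higher, where 10.0% of all genes tested passed in either direction. With pairing 2 rose and 0 fell, where 1.43% of all genes tested were called higher and 0.851% lower. Phlda3, a p53-induced inhibitor of Akt, had 7.54, 8.71 and 9.84 CPM in Setd1a KO, against 5.09, 5.25 and 5.49 CPM in controls, and Pmaip1, which encodes the apoptosis protein Noxa, had 2.04, 3.11 and 3.30 CPM, against 1.27, 1.28 and 1.46 CPM. Neither overlapped between groups, as was the case for 15.3% of all genes tested. Both were named for having the smallest raw p of the list. Their log2 changes were 0.72 and 1.06 with pairing (edgeR adjusted p = 0.0363 and 0.0471) and 0.72 ± 0.17 and 1.07 ± 0.27 (SE) without it (adjusted p = 0.206 and 0.222). These paired calls depended on the pairs kept. Both genes were also called with pair 1 left out, but neither was with pair 2 left out. With pair 3 left out 0 of all genes tested were called. The list's median log2 change was 0.053, with 4 of 14 below 0.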

How the data were processed

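The authors deposited raw, unnormalized counts of reads for 55471 Ensembl genes in 6 libraries. STAR, featureCounts, DESeq and the mm10 build are named, per the submitters' processing notes. Their versions, the strand setting, the annotation and the treatment of multiply mapped reads are not given in the sources used. Symbols and exon lengths came from GENCODE M21 (GRCm38), which matched 55230 identifiers. The tests used edgeR 4.0.16 under R 4.3.3, with TMM scaling, the filter on low counts by group (which left 13044 genes), the two-sided quasi-likelihood test without pairing, and Benjamini-Hochberg adjustment over all genes tested at 0.05. SEs came from the F statistic, and intervals from the t distribution with the test's degrees of freedom. CPM use TMM-adjusted library sizes; a prior count of 2 was added before taking logs. Levels between genes are CPM per kb of merged exons. Alternatives were DESeq2 1.42.0, other scaling and filters, leaving out libraries, and replicate number as a block. Same-numbered libraries deviated together from their group means (r = 0.15, 0.46 and 0.38, all above the limit of 0.1). Differently numbered libraries of the 2 groups had r between -0.45 and 0.053, so replicate 1 stood apart the least. The numbers were therefore treated as pairs in the paired test only, and this comes from the data alone. No pair within a group agreed within sampling noise (chi-square per degree of freedom of 21.6 to 40.0). The steps were tested on simulated data. The changes put into those data were larger than any estimate among the 36 genes, so that test does not cover changes as small as these. The 36 genes and all gene lists were chosen with earlier results of these data known. Genes named with values were, per role, those with the smallest raw p (2) and the highest level; Ncl, Npm1, Fbl, Myc and Setd1a; the extremes of change; and up to 2 per pathway list. Other genes among the 36 were added after their values were seen.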

Additional observations from a re-analysis of the deposited data

How the results depend on the processing

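No alternative called any of the 36 genes. The count called over all genes tested was 0 without pairing, against 298 with the replicate block, 133 in DESeq2 and 74 with no filter on low counts (0 with 5 CPM as the minimum mean, other size factors or library sizes without mitochondrial genes). Leaving out 1 library or pair in turn gave 0 to 714 calls, 10 to 34 of the 36 genes below 0, and medians of -0.12 to 0.068. With the replicate block, Nob1 and Rrp12 were at -0.011 and -0.017, and with no filter Nob1 and Pes1 at -0.0098 and -0.0002. Leaving out 1 library or pair in turn turned the sign of 30 of the 36; their log2 changes ran from -0.14 to 0.15 for Nob1, -0.11 to 0.16 for Nop2, -0.15 to 0.12 for Nop58, -0.038 to 0.085 for Pes1, -0.19 to 0.28 for Rrp12, -0.13 to 0.18 for Rrp9, -0.014 to 0.23 for Tsr1, -0.041 to 0.15 for Utp15, -0.20 to 0.16 for Ncl, -0.29 to 0.071 for Npm1, -0.21 to 0.031 for Ubtf, -0.15 to 0.18 for Utp4, -0.14 to 0.10 for Wdr43, -0.26 to 0.21 for Bop1, -0.17 to 0.097 for Bysl, -0.23 to 0.13 for Polr1a, -0.19 to 0.13 for Polr1b, -0.11 to 0.042 for Wdr12, -0.0089 to 0.12 for Ltv1, -0.16 to 0.093 for Ddx21, -0.11 to 0.039 for Dkc1, -0.18 to 0.015 for Fbl, -0.24 to 0.074 for Mybbp1a, -0.24 to 0.091 for Nat10, -0.21 to 0.054 for Nolc1, -0.13 to 0.092 for Nop14, -0.18 to 0.010 for Rrp1b, -0.29 to 0.046 for Rrs1, -0.20 to 0.10 for Utp20 and -0.12 to 0.0036 for Wdr75. Myc ran from -0.15 to 0.025. The cause was not tested. With the longest transcript as length, the rank of a level moved by at most 13 places. The lowest CPM of any of the 36 genes in any library was 54.9, and depth was not tested as a limit.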

Other observations

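Several of the 36 genes carry small nucleolar RNA genes in their introns or exons. Of the 36, 7 held 21 annotated snoRNA genes on their own strand (Ncl, Gnl3, Nop56, Nop58, Dkc1, Wdr43 and Tsr1), with 5 in Nop56 and 4 in Nop58. None of the 21 passed the filter on low counts, and those inside any 1 host summed to at most 1.05 CPM in any library, so these libraries give no comparison of the snoRNAs themselves.

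The relation of GC content (of the longest annotated transcript) to the replicate differences changed with the replicates compared. Across the 36 genes its correlation with replicate 2 minus replicate 1 was r = 0.33 in Setd1a KO and 0.48 in controls (0.16 and 0.25 over all genes tested). With replicate 3 minus replicate 2 it was r = -0.44 in Setd1a KO and -0.12 in controls (-0.18 and 0.13 over all genes tested). With replicate 3 minus replicate 1 the signs differed, at r = -0.40 in Setd1a KO and 0.56 in controls (-0.034 and 0.36 over all genes tested). Its correlation with the log2 change between Setd1a KO and control was r = -0.13 across the 36. Genes are not independent replicates, and the part of GC content in the replicate patterns was not tested.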
